A study of Mus musculus with 26 samples.

Results

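Primitive endoderm marker genes were followed in the RNA-seq libraries of mouse embryonic stem (ES) cells with and without ZFP57. The group holds 10 of the 24409 genes in the expression table and was chosen by name. It consists of the transcription factor genes *Gata6*, *Gata4*, *Sox17*, *Sox7* and *Foxa2*, the receptor gene *Pdgfra*, the endocytosis genes *Dab2* and *Cubn*, and the basement membrane genes *Lama1* and *Col4a1*. All 10 symbols were present in the table. There were 3 WT libraries and 2 zygotic ZFP57 KO libraries. Each came from a separately titled male ES cell line of C57BL/6J background, and the KO lines carried a targeted disruption of the *Zfp57* exons that encode the KRAB domain and zinc fingers. The lines of both genotypes were derived from E2.5 morulae that were first cultured for 2 days, after which the inner cell mass was isolated, and were grown without serum in medium with LIF and 2 inhibitors, PD0325901 against the Erk pathway and CHIR99021 against Gsk3, and were compared at matched passages of at most 15. ZFP57 is a KRAB zinc finger protein that keeps DNA methylation at imprinted regions. Because the KO is zygotic, ZFP57 laid down in the oocyte may have been present in the first divisions of both genotypes.

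Primitive endoderm is the extraembryonic layer that separates from the epiblast inside the blastocyst and later forms the visceral and parietal endoderm of the yolk sac. FGF signalling through ERK supports the expression of *Gata6*, and *Pdgfra*, *Sox17*, *Gata4* and *Sox7* follow as the layer matures. Parietal endoderm then secretes a thick basement membrane of laminin and type IV collagen. ES cells correspond to the epiblast, and a culture in which ERK signalling is blocked normally holds few cells of this layer.

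Levels are given as FPKM, fragments scaled by transcript length and by the depth of the library, in the order WT 1, WT 2 and WT 3 and then KO 1 and KO 2. The table states FPKM to 2 decimals. The steps between low values put 1 fragment on a 1 kb transcript at 0.0170 to 0.0197 FPKM in the 5 libraries, so the lowest members rest on a handful of fragments. *Zfp57* itself was read at 75.94, 72.34 and 70.55 FPKM in WT and 19.00 and 21.62 FPKM in KO. Both KO libraries lay below every WT library, and the log2 fold change was −1.84 (limma adjusted p = 0.000234). The value per gene does not separate the disrupted exons from the rest of the transcript. The ES cell identity of the libraries was read from pluripotency factor genes, described further on, and from feeder cell genes. Of 13 fibroblast markers, *Col3a1*, *Dcn*, *Lum* and *S100a4* were at 0 in every library, and the summed level of the list was 1.16 to 1.40 FPKM in WT and 1.16 to 1.49 FPKM in KO. Of the 4 fibroblast markers with enough signal to test, 0 passed in the limma fit, and 0 reached an unadjusted p of 0.05, the lowest being 0.0513 for *Col5a1*.

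The primitive endoderm markers were low in WT ES cells. *Lama1* alone reached 1 FPKM, 8 of the 10 had a WT mean under 0.3 FPKM, and outside *Lama1* no WT value was above 0.50 FPKM. In KO cells *Lama1*, which encodes a laminin alpha chain, and *Sox7*, which encodes a transcription factor of the SOX F group, rose, each to more than 5 times its WT mean. *Col4a1*, which encodes a type IV collagen chain, fell (limma adjusted p = 0.0425), a call that was lost without any 1 of the libraries, without the filter on low values and with the replicate number as a block. *Gata4*, *Pdgfra*, *Dab2* and *Cubn* did not pass the test, and *Gata6*, *Sox17* and *Foxa2* were too low to be tested. Of the 7 members with a mean of at least 0.1 FPKM, 3 passed an adjusted p of 0.05 in the limma fit over 14612 genes, where 41.1% of all genes passed. The 2 higher members compare with 18.8% of all genes called higher, and the 1 lower member with 22.3% called lower. Over the 7 the median log2 fold change was −0.11, against −0.01 over all genes tested, and it was 0.19 without KO 1. A log2 fold change of at least 1 with an adjusted p under 0.05 was held by 2 members, *Lama1* and *Sox7*, and by 2.93% of all genes in that direction. No member fell by that much, as 5.09% of all genes did. In bulk RNA, a few cells with much of a transcript and many cells with a little of it cannot be told apart, and neither can fewer cells of a type and less RNA per cell.

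**Figure D1:**
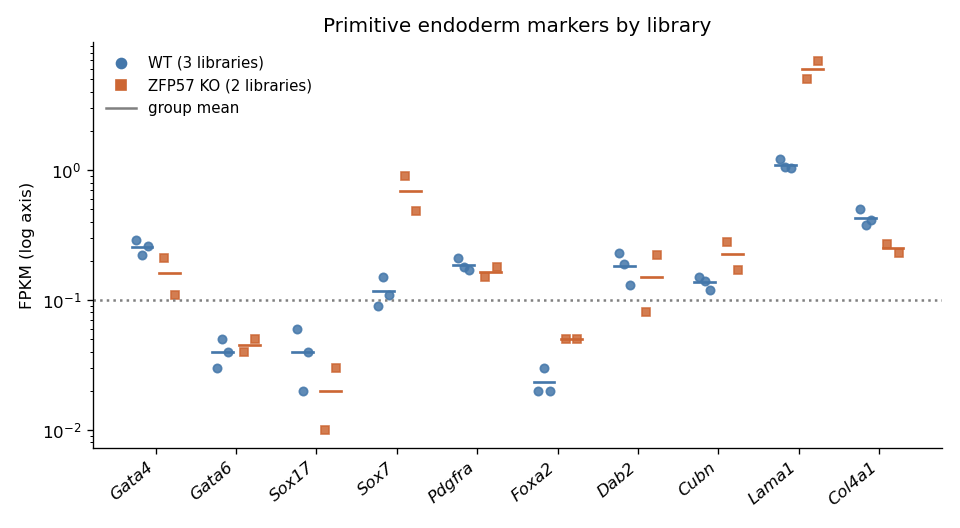
FPKM of each of the 10 primitive endoderm markers in the 3 WT and 2 KO libraries, 1 point per library, on a log axis, with the dotted line at 0.1 FPKM. The KO points of *Lama1* (5.00 and 6.94 FPKM) and *Sox7* (0.90 and 0.48 FPKM) stand clear above the WT points, while *Gata6*, *Sox17* and *Foxa2* lie under the dotted line in every library.

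*Gata6* encodes the factor that acts first in this lineage. Its gene, on chromosome 18, was read at 0.03, 0.05 and 0.04 FPKM in WT and at 0.04 and 0.05 FPKM in KO. The groups overlapped, and with the gene's exon length these levels correspond to an estimated 5, 9 and 6 fragments in WT and 7 and 9 in KO. *Sox17*, a SOX F factor of early endoderm (chr1:4490928-4497426 on mm10), was read at 0.06, 0.02 and 0.04 FPKM in WT and at 0.01 and 0.03 FPKM in KO. These groups overlapped as well, with at most 14 estimated fragments in any library. *Foxa2*, a forkhead factor of definitive and visceral endoderm (chr2:148042877-148046969), was read at 0.02, 0.03 and 0.02 FPKM in WT and at 0.05 in both KO libraries. Both KO values were above every WT value, but they rest on an estimated 6 and 7 fragments against 2 to 4. When all genes above 0 in some library were tested, limma's adjusted p was 0.740 for *Gata6*, 0.365 for *Sox17* and 0.0673 for *Foxa2*, and none of the 3 passed, where 29.1% of 19757 genes did.

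*Gata4*, the zinc finger factor that follows *Gata6* (chr14:63198914-63271712), had 0.29, 0.22 and 0.26 FPKM in WT and 0.21 and 0.11 FPKM in KO. The means were 0.257 ± 0.0351 FPKM (SD, n = 3) and 0.160 ± 0.0707 FPKM (SD, n = 2). The groups did not overlap, with KO lower, yet the gap between the nearest libraries was small, and the log2 fold change of −0.48 (95% interval −1.06 to 0.10) did not pass in limma (adjusted p = 0.158).

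*Sox7* is switched on late in primitive endoderm and stays on in parietal endoderm. On the same chromosome as *Gata4* (chr14:63943706-63950732), it was read at 0.09, 0.15 and 0.11 FPKM in WT and at 0.90 and 0.48 FPKM in KO. Every KO library was above every WT library, and KO 1 was higher than KO 2. The mean went from 0.117 ± 0.0306 FPKM (SD, n = 3) to 0.690 ± 0.297 FPKM (SD, n = 2), a ratio of 5.91. On the log2(FPKM + 0.1) scale, which understates the change of a gene this low, the difference was 1.82 (SE 0.28, 95% interval 1.14 to 2.51, limma adjusted p = 0.00408). It ranked 131 among the increases of 14612 genes. The estimated fragments were 16, 29 and 18 in WT and 154 and 86 in KO.

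None of the receptor and endocytosis genes passed the test. *Pdgfra* encodes the PDGF receptor that marks primitive endoderm precursors and supports their survival (chr5:75151322-75198206). Its levels were 0.21, 0.18 and 0.17 FPKM in WT and 0.15 and 0.18 FPKM in KO, overlapping between the groups, with a log2 fold change of −0.11 (95% interval −0.58 to 0.36, limma adjusted p = 0.672). *Dab2*, a clathrin adaptor needed for the sorting of the layer (chr15:6299788-6440715), had 0.23, 0.19 and 0.13 FPKM in WT. Its KO values, 0.08 and 0.22 FPKM, spanned most of the WT range, and the log2 fold change was −0.22 (95% interval −0.99 to 0.54, limma adjusted p = 0.602). Without KO 1, the lower of the KO libraries, the estimate for *Dab2* was 0.19, so its direction rests on that library. *Cubn*, an endocytic receptor of visceral endoderm (chr2:13276338-13491876), had 0.15, 0.14 and 0.12 FPKM in WT and 0.28 and 0.17 FPKM in KO. Both KO libraries were above WT, KO 2 by a small margin, and the log2 fold change of 0.44 (95% interval −0.12 to 0.99) did not pass in limma (adjusted p = 0.173). For these 3 genes the intervals leave out an increase as large as that of *Lama1*, but they do not show that the levels were equal, and the added 0.1 FPKM limits how large a decrease could appear.

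*Lama1* was the most abundant member in both genotypes. It encodes the alpha 1 chain of the main laminin of the early embryo (chr17:67697127-67822645, on the chromosome that also carries *Zfp57*). It was read at 1.21, 1.05 and 1.03 FPKM in WT and at 5.00 and 6.94 FPKM in KO. The WT libraries were close together and both KO libraries lay far above them. The mean rose from 1.10 ± 0.0987 FPKM (SD, n = 3) to 5.97 ± 1.37 FPKM (SD, n = 2), a ratio of 5.44 and a log2 fold change of 2.33 (SE 0.16, 95% interval 1.95 to 2.71, limma adjusted p = 0.000412). It ranked 83 among the increases. With an estimated 498 to 636 fragments in WT and 2494 and 3641 in KO, it is the best counted of the members.

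*Col4a1* encodes the alpha 1 chain of type IV collagen, another main component of basement membranes (chr8:11198423-11312889). It had 0.50, 0.38 and 0.41 FPKM in WT and 0.27 and 0.23 FPKM in KO. Both KO libraries were below every WT library. The mean fell from 0.430 ± 0.0625 FPKM (SD, n = 3) to 0.250 ± 0.0283 FPKM (SD, n = 2), with a log2 fold change of −0.59 (SE 0.18, 95% interval −1.04 to −0.15, limma adjusted p = 0.0425). This call was close to the threshold and was lost when any 1 of the 5 libraries was left out, with limma adjusted p-values from 0.0605 to 0.15. Groups did not overlap for 5 of the 7 tested members, against 63.4% of all genes tested. Both KO libraries were above WT for *Sox7*, *Cubn* and *Lama1*, against 30.3% of all genes, and below WT for *Gata4* and *Col4a1*, against 33.1%.

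**Figure D2:**
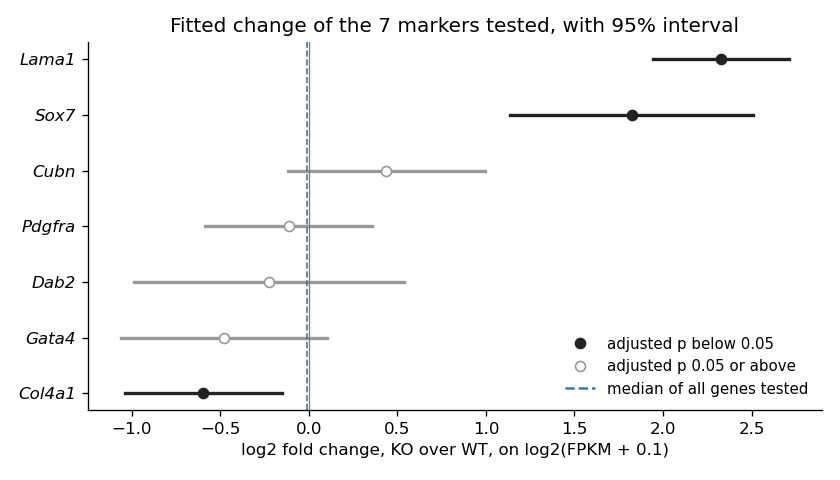
Log2 fold change of the 7 tested primitive endoderm markers, KO against WT, with 95% intervals from the limma fit and a dashed line at the median of all genes. The intervals of *Lama1* and *Sox7* lie above 1, that of *Col4a1* lies below 0, and those of *Gata4*, *Pdgfra*, *Dab2* and *Cubn* cross 0.

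The order of the members changed between the genotypes. In WT the order was *Lama1*, *Col4a1*, *Gata4*, *Pdgfra*, *Dab2*, *Cubn* and *Sox7*, followed by *Gata6*, *Sox17* and *Foxa2*. The WT range of *Dab2* overlapped those of *Gata4* and *Pdgfra*, and the ranges of *Dab2*, *Cubn* and *Sox7* overlapped from each gene to the next, as did those of the last 3, so their places are not separated beyond the spread. In KO, *Sox7* stood second behind *Lama1*, and both were separated from all that followed. *Col4a1*, *Cubn*, *Pdgfra*, *Gata4* and *Dab2* then overlapped from each to the next. Among all 24409 genes, the WT mean of *Lama1* stood at percentile 57.2, those of *Col4a1* and *Gata4* at 49.7 and 46.0, and that of *Foxa2* at 31.0.

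Summed over the 10 members, the level was 2.79, 2.41 and 2.33 FPKM in WT and 6.99 and 8.46 FPKM in KO. *Lama1* made up 43.4% to 44.2% of this sum in WT, 71.5% in KO 1 and 82.0% in KO 2. Without *Lama1* and *Sox7* the sums were 1.49, 1.21 and 1.19 FPKM in WT and 1.09 and 1.04 FPKM in KO. These 2 members were set aside after their values were seen, so the remainder is a description, and it includes *Col4a1*. The 5 transcription factor genes summed to 0.47 to 0.49 FPKM in WT and to 1.21 and 0.72 FPKM in KO, and *Sox7* alone contributed 0.90 and 0.48 FPKM of the KO values.

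The partners of the members in families and complexes were read next. The ligand gene *Pdgfa*, whose product activates the PDGFRA receptor, went from 9.17, 9.56 and 8.59 FPKM to 18.85 and 20.94 FPKM, above WT in both KO libraries (log2 fold change 1.12, limma adjusted p = 0.000373). *Pdgfc* also passed, at 0.28 (adjusted p = 0.0200), while the receptor *Pdgfra* did not. *Gata2*, a GATA factor of blood and trophoblast, went from 0.12, 0.14 and 0.20 FPKM to 0.42 and 0.43 FPKM (log2 fold change 1.06, limma adjusted p = 0.00922). *Gata5* was at 0 in every library. *Sox18*, the third SOX F gene beside *Sox7* and *Sox17*, had 0.12, 0.08 and 0.08 FPKM in WT and was listed at 0 in both KO libraries, with a mean under the level needed for the main test. In the fit without that filter it was called lower (limma adjusted p = 0.00692). Of the relatives of *Foxa2*, *Foxa1* was too low to test and *Foxa3* did not pass. *Dab1*, the neuronal relative of *Dab2*, was higher in KO (log2 fold change 0.76, limma adjusted p = 0.0152). *Amn*, which anchors *Cubn* in the membrane, was at most 0.08 FPKM and was not tested. In all, 5 of the 13 tested genes on this list of 24 were higher and 2 lower, against 18.8% and 22.3% of all genes.

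*Lama1* and *Col4a1* act as parts of larger assemblies. The early embryonic laminin joins the *Lama1* chain with those of *Lamb1* and *Lamc1*. *Lamb1* had 8.45, 7.10 and 7.27 FPKM in WT and 3.30 and 3.52 FPKM in KO, below WT in both libraries (log2 fold change −1.13, limma adjusted p = 0.000570). *Lamc1*, whose chain is common to most laminins, had 49.79, 44.89 and 45.37 FPKM in WT and 60.21 and 62.56 FPKM in KO (log2 fold change 0.40, limma adjusted p = 0.00274). The 3 chains of the same molecule therefore did not share a direction. Of the other alpha chains, *Lama3* fell from 7.60, 7.67 and 8.21 FPKM to 4.37 and 3.80 FPKM (log2 fold change −0.92, limma adjusted p = 0.000646). *Lama5*, the main alpha chain of the epiblast, went from 10.47, 10.15 and 8.69 FPKM to 12.54 and 12.51 FPKM (log2 fold change 0.36, limma adjusted p = 0.0176). *Lama1* was below *Lama3* in every WT library and above it in both KO libraries. *Col4a2*, the partner of *Col4a1* in the collagen trimer, had 0.17, 0.17 and 0.20 FPKM in WT and 0.16 and 0.19 FPKM in KO, which overlapped (log2 fold change −0.03, limma adjusted p = 0.926). The first exons of the 2 collagen genes overlap on opposite strands, and whether the counting used strand is not given in the sources used here.

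**Figure D3:**
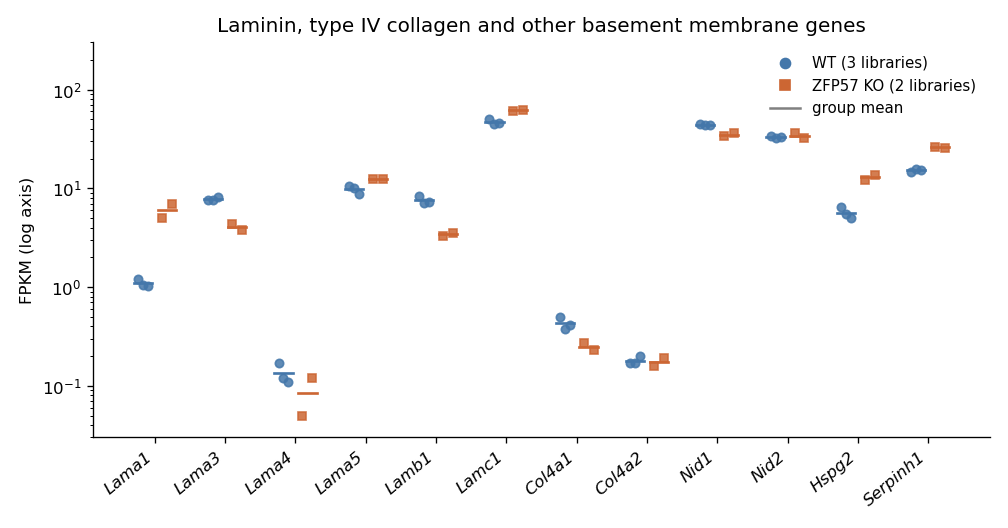
FPKM of *Lama1* and *Col4a1* and of 10 further laminin, collagen and basement membrane genes, 1 point per library, on a log axis. *Lama1* and *Hspg2* are higher and *Lamb1* and *Lama3* lower in both KO libraries, while *Col4a2* overlaps between the genotypes.

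Of 18 further basement membrane genes, all tested, 6 were higher and 6 lower in KO, 12 in all against the 41.1% of all genes called, and their median log2 fold change was −0.02. The increases were led by *Hspg2*, which encodes the proteoglycan perlecan. It went from 6.44, 5.49 and 5.01 FPKM to 12.26 and 13.50 FPKM, above WT in both KO libraries (log2 fold change 1.18, limma adjusted p = 0.000788). *Serpinh1*, a collagen chaperone, and *Itga6*, a laminin receptor subunit, rose by 0.76 and 0.63 on the log2 scale. The decreases were led by *P4ha1*, which hydroxylates collagen prolines, with 3.83, 4.17 and 4.66 FPKM in WT and 1.39 and 1.61 FPKM in KO (log2 fold change −1.43, limma adjusted p = 0.000568), followed by *Lamb1* and *P4ha2*. *P4ha2* lies on chromosome 11, where 1224 tested genes had a median of −0.47 on the log2 scale. With the median of each chromosome subtracted, 7 of the 18 were higher and 4 lower.

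Of 26 other genes of the extraembryonic endoderm and its derivatives, 13 were high enough to test. In KO 2 of these were higher and 5 lower, against 18.8% and 22.3% of all genes, for a median of −0.25 on the log2 scale. When genes of any level above 0 were tested, 5 were higher and 6 lower of 24, where 29.1% of all genes were called. *Hnf4a*, *Bmp2* and *Plat*, all under 0.1 FPKM on average, were then among the higher genes, with limma adjusted p-values of 0.0325, 0.0227 and 0.0439, and *Rbp4*, a retinol carrier gene, was among the lower ones (0.0353). *Apoe*, an apolipoprotein gene, and *Krt8*, a keratin gene of simple epithelia, were the higher pair. *Krt8* had 0.66, 0.56 and 0.62 FPKM in WT and 1.73 and 2.13 FPKM in KO (log2 fold change 1.50, limma adjusted p = 0.000867). The other keratin gene on the list, *Krt18*, overlapped between the groups (log2 fold change −0.25, limma adjusted p = 0.361). *Apoe* went from 79.74, 80.78 and 72.58 FPKM to 180.83 and 209.82 FPKM (log2 fold change 1.33, limma adjusted p = 0.000338). The summed level of the list, 193 to 198 FPKM in WT and 288 to 307 FPKM in KO, is therefore mostly that of *Apoe* in KO. The 5 lower genes were *Lefty1*, *Lrp2*, *Apob*, *Hhex* and *Cited1*, all known from visceral endoderm. *Lrp2*, the endocytic partner of *Cubn*, had 2.77, 2.88 and 3.03 FPKM in WT and 1.15 and 0.88 FPKM in KO (log2 fold change −1.43, limma adjusted p = 0.000721). *Lefty1*, a secreted Nodal antagonist, had 5.15, 6.97 and 7.83 FPKM in WT and 2.63 and 1.73 FPKM in KO (log2 fold change −1.57, limma adjusted p = 0.00308). Both were lower in every KO library, whereas *Cubn* was not. *Cer1* and *Fxyd3* were at 0 throughout.

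The FGF-ERK pathway, which induces primitive endoderm and which the medium blocks at the kinase step, gave a mixed picture. Of its 20 components, all tested, 6 were higher and 4 lower in KO, close to the 41.1% of all genes called, with a median log2 fold change of −0.01. *Shc1*, an adaptor gene, and *Fgfr1*, a receptor gene, led the increases at 0.67 and 0.40 on the log2 scale. The receptor *Fgfr2* had 0.78, 1.10 and 0.88 FPKM in WT and 0.65 and 0.40 FPKM in KO (log2 fold change −0.72, limma adjusted p = 0.0463), a call lost without the filter on low values (adjusted p = 0.0838). *Grb2*, an adaptor of the activated receptors, fell from 25.31, 23.47 and 25.00 FPKM to 17.45 and 16.55 FPKM (log2 fold change −0.53, limma adjusted p = 0.000838). It also lies on chromosome 11, and the part of that chromosome's shift in its decrease was not tested. With the median of each chromosome subtracted, 3 of the 20 components were higher and 4 lower. None of the 10 primitive endoderm markers lies on chromosome 11.

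Of 9 target genes of ERK signalling, 4 were higher and none lower in KO, near the 41.1% of all genes called in either direction and above the 18.8% called higher, and their median log2 fold change was 0.42. The uncalled targets were *Dusp4* at 0.42, *Fos* at 0.13, *Egr1* at 0.02, *Ier3* at −0.05 and *Etv5* at −0.07 on the log2 scale. The increases were led by *Spry4*, *Etv4* and *Dusp6*. *Spry4*, a feedback inhibitor, had 0.09, 0.19 and 0.08 FPKM in WT and 2.97 and 2.82 FPKM in KO (log2 fold change 3.80, limma adjusted p = 0.000373). *Etv4*, an ETS factor, had 1.02, 1.10 and 0.61 FPKM in WT and 7.94 and 8.97 FPKM in KO (log2 fold change 3.12, limma adjusted p = 0.000520). *Dusp6*, an ERK phosphatase, had 1.02, 1.06 and 0.95 FPKM in WT and 3.81 and 4.33 FPKM in KO (log2 fold change 1.91, limma adjusted p = 0.000327). All 3 were far above WT in both KO libraries, as were *Lama1* and *Sox7*, whereas *Gata6* stayed within its WT range.

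Pluripotency factor genes, which mark the epiblast state that primitive endoderm leaves, were abundant in all libraries. Their summed level over 14 genes was 903 to 928 FPKM in WT and 1010 to 1096 FPKM in KO. In KO 8 of the 14 were higher and 3 lower, against 18.8% and 22.3% of all genes, with a median log2 fold change of 0.27. *Klf4* had 30.14, 25.88 and 28.27 FPKM in WT and 42.33 and 51.66 FPKM in KO (log2 fold change 0.74, limma adjusted p = 0.00248). *Gbx2* and *Tfcp2l1* also rose, and *Prdm14*, *Klf2* and *Sall4* fell by 0.43, 0.28 and 0.19 on the log2 scale. *Nanog*, which opposes *Gata6* in the inner cell mass, did not pass (log2 fold change −0.11, limma adjusted p = 0.0954).

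**Figure D4:**
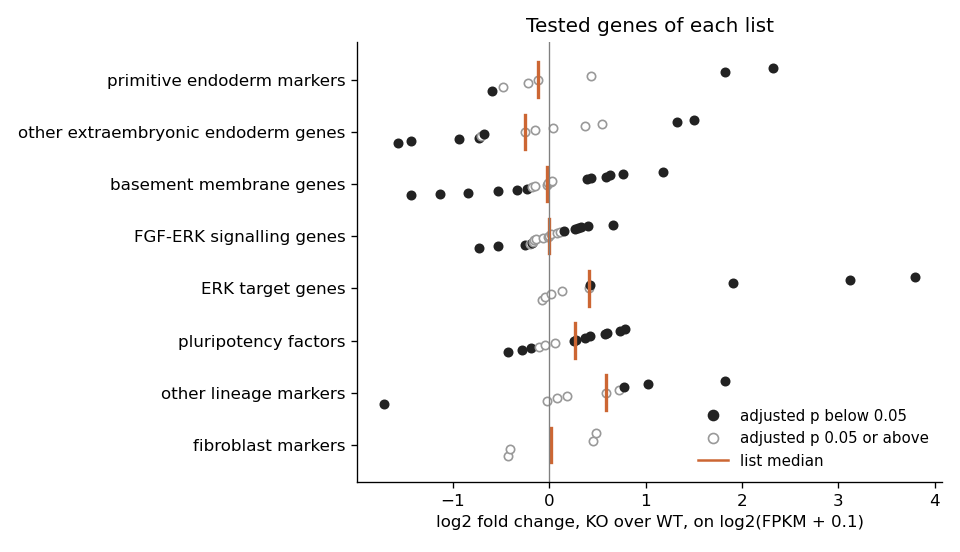
Log2 fold change, KO against WT, of each tested gene in the primitive endoderm marker set and in the further gene lists, with the median of each list marked. The medians run from −0.25 for the other extraembryonic endoderm genes to 0.59 for the other lineage markers, and that of the primitive endoderm markers is −0.11. Of the other lineage markers, *Sox1*, *Cdx2* and *Gata3* had WT means under 0.1 FPKM and passed the filter only through their KO values. The 5 markers of that list that were too low to test are left out, so its median depends on the filter.

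The genes whose pattern over the 5 libraries was most like that of the 2 called increases were found by the Euclidean distance between centred log2(FPKM + 0.1) values, among genes averaging 1 FPKM or more. For *Lama1* these were *Cpe*, a carboxypeptidase gene, at a distance of 0.404, the microRNA gene row *Mir485* at 0.408 and *Nt5e*, a nucleotidase gene, at 0.447. *Cpe* had 0.55, 0.68 and 0.49 FPKM in WT and 3.29 and 4.06 FPKM in KO, and like *Nt5e* it reached the mean of 1 FPKM through its KO values. For *Sox7* they were *Cd24a*, a surface glycoprotein gene, at 0.353, and the microRNA gene rows *Mir453* at 0.385 and *Mir370* at 0.436. *Cd24a* had 7.57, 9.73 and 6.33 FPKM in WT and 34.58 and 23.45 FPKM in KO. *Lama1* itself was higher in KO 2 and *Sox7* in KO 1.

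ZFP57 peaks were then placed against the members. The list for WT cells of C57BL/6J background holds 1423 peaks and the list for hybrid cells holds 743. No member had a peak of either list within 20 kb or within 100 kb of its span. Among all 24261 genes that could be placed, 4.25% had a peak of the first list within 20 kb and 14.2% within 100 kb. The distance to the nearest peak ran from 107 kb for *Pdgfra* to 4314 kb for *Lama1*, with a median of 1265 kb against 597 kb for all placed genes. *Sox7*, the other member that rose, was 2666 kb from a peak, and *Col4a1*, which fell, was 295 kb from one.

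**Figure D5:**
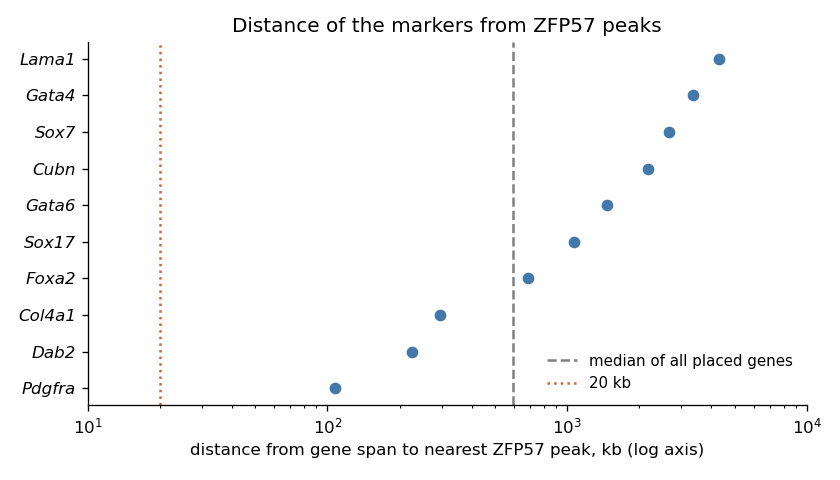
Distance in kb, on a log axis, from each primitive endoderm marker to the nearest ZFP57 peak of the C57BL/6J list, with a dashed line at the median of all placed genes and a dotted line at 20 kb. All 10 markers lie to the right of the dotted line, from *Pdgfra* at 107 kb to *Lama1* at 4314 kb.

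The peak nearest to any member, the one beyond *Pdgfra*, is shown because it is the closest ZFP57 sequence to the set. It spans chr5:75305644-75305850 on mm10, plus strand, between genes. *Pdgfra* is 107438 bp away, and *Gsx2*, 227751 bp away, lies beyond *Pdgfra* on the same side of the peak. The hybrid list holds this peak too. The capitals mark TGCCGC, the hexanucleotide that ZFP57 binds when it is methylated, which was searched on both strands and occurs once, at base 31 of 207.
Pdgfra nearest peak: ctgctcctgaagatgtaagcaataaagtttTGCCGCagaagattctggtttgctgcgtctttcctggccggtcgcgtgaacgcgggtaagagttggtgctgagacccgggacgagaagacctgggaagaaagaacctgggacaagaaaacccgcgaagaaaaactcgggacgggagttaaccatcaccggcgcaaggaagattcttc
All 207 bases are masked as repeats in the reference, 53.1% are G or C, and 15 CpG sites are present. In the RefSeq promoter table for GRCm38, 8 promoters matched 5 of the members, *Col4a1*, *Cubn*, *Dab2*, *Foxa2* and *Pdgfra*. In the 250 bases before the start none of the 8 held TGCCGC or its complement GCGGCA, against 8.75% of 32536 such windows of all genes. *Lama1*, *Sox7*, *Gata4*, *Sox17* and *Gata6* had no entry.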

How the data were processed

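RNA-seq libraries were made by the authors from ribosomal RNA-depleted total RNA of 3 WT and 2 ZFP57 KO ES cell lines, with paired 150 bp reads on a HiSeq 4000, and mapped to mm10. The deposited values are FPKM per gene, computed by the authors and rounded to 2 decimals. The deposited ZFP57 peak lists give intervals, 1 list over the WT replicates and 1 for hybrid cells. The submitters' processing notes name FastQC 0.11.5, Trim Galore 0.2.7, STAR 2.5.2, BWA 0.6.2, Picard and MACS2 2.1.0. The program that counted reads, the annotation and the strand setting are not given in the sources used here. Total FPKM was 207668 to 213688 and 17504 to 18138 genes were above 0. Genes of 50 to 150 bp gave the value of 1 fragment. At that step 90.3% to 95.6% of their values were whole within 0.15 of a fragment, where 30.0% would be by chance. Fragment numbers per gene assume the RefSeq exon length and are estimates.

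KO and WT were compared with limma 3.58.1 (R 4.3.3, eBayes with trend) on log2(FPKM + 0.1) over the 14612 genes that averaged 0.1 FPKM or more. Adjusted p-values are those of Benjamini and Hochberg across all of these, with a threshold of 0.05. The code was tested on simulated data first. Libraries of a group are numbered ES cell lines by their titles, with nothing on further replication, so p-values measure the spread between these lines. No sequencing batch is given. An exact permutation test of 3 against 2 cannot go below p = 0.1, so none was used. No label pairs WT and KO libraries by replicate number, and the main fit did not pair them. The deviations of same-numbered libraries correlated at −0.07 and −0.04. With 2 KO libraries the deviations of KO 1 and KO 2 mirror each other, so this cannot show whether lines were paired. The members, the gene lists and the tests were chosen with earlier results of these data known. All members and *Zfp57* were named. From each other list up to 3 called genes with the highest and 3 with the lowest log2 fold change were to be named. Families were read by level, and the 3 nearest patterns were given for the 2 members with the largest change. *Hhex*, *Cited1*, *Lamc1*, *Nanog*, the uncalled ERK targets, *Hnf4a*, *Bmp2*, *Plat*, *Rbp4*, *Col5a1*, the genes at 0 and the neighbours of members or of a peak were named outside this rule, after their values were seen, and 1 gene that the rule names is not reported here. Gene positions came from RefSeq for GRCm38, through the symbol for 23165 genes and a synonym for 1096. Alternatives covered the pseudocount, filter, scaling, variance model, chromosome medians, replicate block, threshold and each library left out. The KAP1 and H3K9me3 ChIP libraries were not used here.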

Additional observations from a re-analysis of the deposited data

How the results depend on the processing

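*Lama1* passed 0.05 in all 17 alternatives (log2 fold change 1.72 to 2.56, limma adjusted p from 0.000151 to 0.00844), and *Sox7* in all 16 that tested it (0.59 to 2.43, 0.00236 to 0.0363). *Col4a1* stayed lower in KO in 16 alternatives. Its adjusted p passed 0.05 in 9 of them, 2 of which set a stricter limit that it did not meet. It missed 0.05 without a filter, with the replicate block and in the 5 fits without 1 library. *Gata4*, *Cubn*, *Pdgfra* and *Dab2* passed in none. *Dab2* ran from −0.64 to 0.19 without 1 library, turning to 0.19 without KO replicate 1. Without each library in turn, 2 members were called (*Lama1* and *Sox7*) and the members' median ran from −0.19 to 0.19, the latter without KO replicate 1. With a mean of at least 1 FPKM, 1 member was tested and called, so the median was 2.33 by construction. All genes called, 6002, ran from 4146 to 4831 without 1 library, and were 3291 at an adjusted p of 0.01 and 1172 at 0.05 with a log2 change of 1 or more. That fold limit left 4 of 7 other extraembryonic endoderm genes, 3 of 12 basement membrane genes, and 0 FGF-ERK signalling genes and pluripotency factors. With the replicate number as a block, 3012 genes, 5 of 10 FGF-ERK signalling genes, 6 of 11 pluripotency factors and 2 of 4 other lineage markers were called, and 2 members. No label says whether libraries of the same number share a source. Every other call count of a list was within 1.5 times. Other extraembryonic endoderm genes called were 11 with no filter. Other lineage markers called were 2 with no filter, 2 at an adjusted p of 0.01, 2 without WT replicate 1 or WT replicate 3 and 0 at a mean of at least 1 FPKM. Fibroblast markers called were 2 with eBayes without trend and 1 without KO replicate 1. Without 1 library the calls ran from 5 to 9 for other extraembryonic endoderm genes, 10 to 12 for basement membrane genes, 7 to 9 for FGF-ERK signalling genes, 3 to 4 for ERK target genes, 9 to 11 for pluripotency factors, 2 to 4 for other lineage markers and 0 to 1 for fibroblast markers. The cause of these moves was not tested. Members under 0.1 FPKM rest on few fragments, and with 2 KO lines the spread within KO is poorly known.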

Other observations

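Of 14 markers of other lineages, 9 were tested, 3 were higher and 1 lower in KO, near the 41.1% of all genes called, and their summed level was 3.48 to 3.90 FPKM in WT and 4.25 to 4.48 FPKM in KO. *Sox1*, a neuroectoderm factor, had 0.08, 0.10 and 0.08 FPKM in WT and 0.47 and 0.67 FPKM in KO, above WT in both libraries (log2 fold change 1.83, limma adjusted p = 0.00152). *T*, the mesoderm factor Brachyury, and *Cxcr4*, a chemokine receptor gene, had log2 fold changes of 1.02 and 0.78 (limma adjusted p = 0.0266 and 0.0353). Without the filter on low values these were 0.0527 and 0.0612, and without WT replicate 1 or WT replicate 3 the calls on the list were 1 higher and 1 lower. *Esx1*, an X-linked trophoblast gene, had 1.51, 1.06 and 1.17 FPKM in WT and 0.21 and 0.43 FPKM in KO, below WT in both (log2 fold change −1.72, limma adjusted p = 0.00413).

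Of 40 genes within 200 kb of the members, 18 were tested, and 5 were higher and 3 lower in KO, near the 41.1% of all genes called. *Arhgap28*, 20061 bp from *Lama1*, had 2.51, 2.57 and 2.59 FPKM in WT and 1.94 and 1.82 FPKM in KO, a decrease (log2 fold change −0.42, limma adjusted p = 0.00943) beside the increase of *Lama1*. *Pinx1*, 23844 bp from *Sox7*, had 15.54, 15.34 and 14.05 FPKM in WT and 14.87 and 13.98 FPKM in KO, with overlapping groups and no call. Beside *Cubn*, whose increase did not pass, *Vim*, 82435 bp away, went from 41.63, 47.54 and 41.70 FPKM to 91.43 and 61.56 FPKM (log2 fold change 0.78, limma adjusted p = 0.0110). *Rab20* and *Irs2*, 140501 and 189494 bp from *Col4a1*, were lower and higher in KO, at −1.92 and 0.83 on the log2 scale. Near *Gata4*, which did not pass, *Fdft1* and *Ctsb* were higher by 0.32 and 0.34 and the defensin gene *Defb42* lower at −2.11 on the log2 scale. *St8sia6*, also near *Cubn*, was higher by 0.95.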
